A study of Mus musculus with 16 samples.

Results

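The genotype effect common to the duodenum and the ileum was examined by averaging, within each mouse, the log2 level of every gene over its 2 libraries and comparing 4 mutant mice with 4 control mice. All 16 libraries of the series entered this comparison, which makes 8 mice. Mutant mice were adult C57BL/6N males of genotype Neurog3 f/f; Villin-CreERT2. Their floxed Neurog3 alleles are deleted by CreERT2, a recombinase that acts only in the presence of tamoxifen. The Villin promoter that drives it is that of an intestinal epithelial gene. Control mice were males of the same strain that carried the floxed alleles without the recombinase. All animals ate a high fat diet, and the tissue was collected 5 weeks after tamoxifen. The libraries were made from total RNA of whole tissue, so fewer cells of a type and less RNA per cell cannot be told apart in any result below.

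Neurog3 is the basic helix-loop-helix factor that commits an intestinal progenitor to the enteroendocrine lineage, the scattered epithelial cells that secrete peptide hormones and serotonin. It acts briefly in the crypt and switches on a cascade of further factors (Neurod1, Pax4, Lmx1a and others) that select the hormone a cell will make. Different hormones predominate in the proximal and distal gut, while the average used here gives both regions equal weight for every gene.

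Mice are named by genotype and by the number in the library labels: C133, C134, C151 and C154 are controls, while M136, M167, M168 and M177 are mutants. Values per library are given in that order, as counts scaled to library size (CPM) after scaling by the trimmed mean of M values. A log2 fold change is the mutant mean minus the control mean of the per-mouse averages of log2 CPM. A rise or a fall is a difference for which limma's moderated test gave an adjusted p (Benjamini-Hochberg over all 19289 genes tested) under 0.05. The effect in each region is given as a description, and a second test asked whether the ileum minus duodenum difference of a mouse depended on genotype.

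Library totals ran from 40.9 to 67.2 M counts. The first principal component of the mouse averages held 50.1% of the variance and placed the controls at -64.4 (C134), -63.3 (C154), -20.7 (C133) and -18.3 (C151) and the mutants between 27.2 and 59.2. C134 and C154 stood apart in a list of 14 follicle and M cell genes, meant to mark organised lymphoid tissue. Its mean log2 CPM was 2.71 and 3.10 in them and 0.0676 to 1.34 in the other 6 mice. Its summed level in the duodenum, which follows the most abundant members, ran the other way. That sum was 293, 83.1, 293 and 132 CPM in control mice and 280, 4920, 961 and 4820 CPM in mutant mice. Why the 2 measures differ was not tested, so the list may not track lymphoid tissue alone. C134 and C154 also held little RNA of the exocrine pancreas, an organ that lies against the duodenum. The summed level of the pancreas list in the duodenum was 33200, 72.8, 21100 and 76.8 CPM in the control mice and 9270, 205000, 45400 and 200000 CPM in the mutant mice. The summed level of the follicle list in the duodenum had the same order over the mice, apart from C133 and C151, both at 293 CPM. In the ileum the mean log2 CPM of the list was 5.79, -2.33, 5.51 and -2.99 in the control mice. It was 2.94, 6.82, 6.56 and 6.13 in the mutant mice, so C134 and C154 were the lowest there too. The source of this RNA was not tested in either region. With limma none of the 14 tested genes of the pancreas list passed, and none had an unadjusted p under 0.05 (median log2 fold change 6.50). Summed counts gave 0 calls with edgeR and 1 with DESeq2. Fits without C134 and C154, without M167 and M177, or with the mean of either gene list as a covariate are named where they change a result.

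On the averages 2118 genes rose in mutant mice and 2205 fell, 11% and 11.4% of the genes tested. The falls were the larger changes: 716 genes fell and 193 rose at least 2-fold, with median log2 fold changes of -0.748 among the genes that fell and 0.514 among those that rose, against -0.0144 over all genes. A gene that moved the same way in every mouse of both regions was rarer. For 576 of the genes that rose (2.99% of those tested) the 4 mutant libraries lay above all 4 control libraries in the duodenum and again in the ileum, and for 806 of those that fell (4.18%) they lay below. Whatever the test, such a separation was seen upwards for 588 genes (3.05%) and downwards for 816 (4.23%). Without C134 and C154, which also leaves fewer mice, 695 genes rose and 852 fell, of which 458 and 700 were separated in this way. With the pancreas genes as a covariate the counts were 932 and 1064, and with the follicle genes 1111 and 1229. The separated rises numbered 921 without M167 and M177 and 940 without M136, where fewer mutant libraries had to lie apart.

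**Figure D1:**
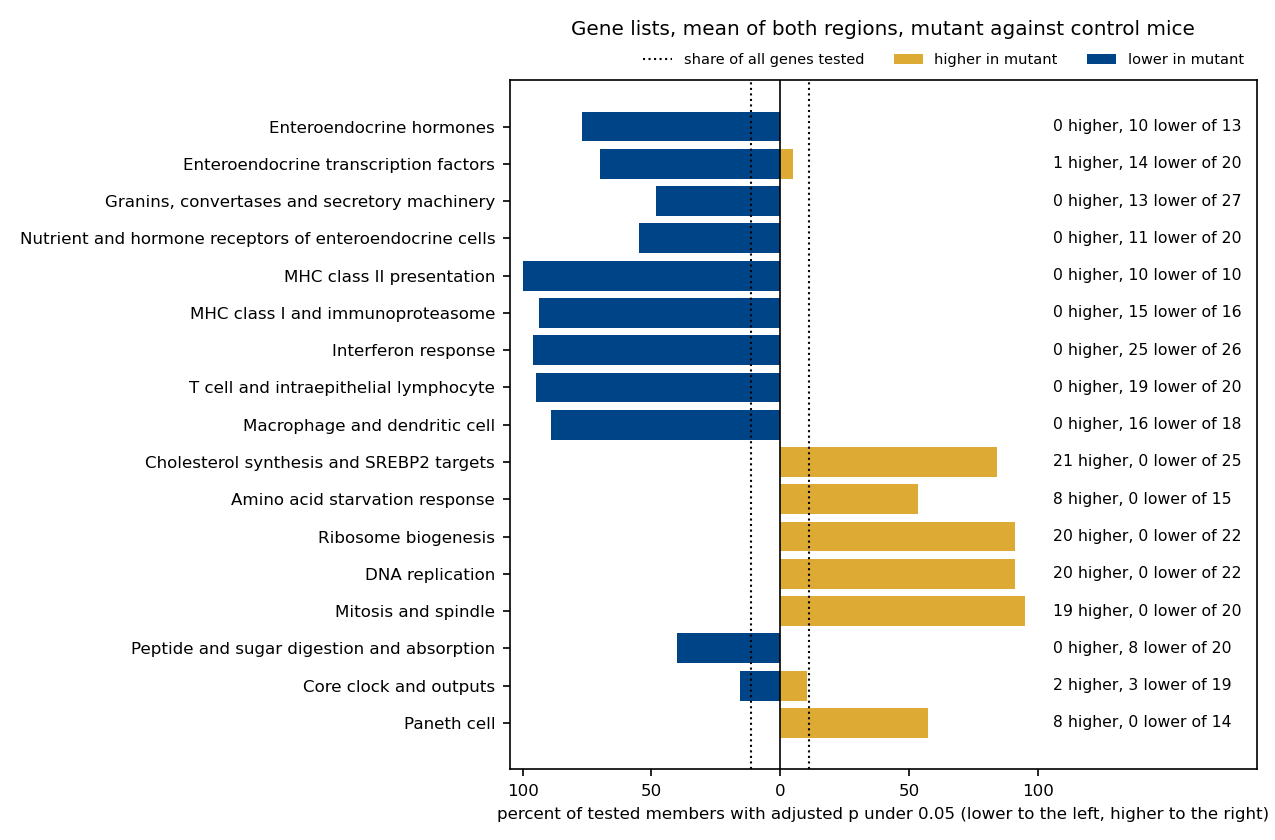
Percent of the tested members of each gene list that fell (bars to the left) or rose (bars to the right) in mutant mice on the mean of both regions, with the counts at the right. Dotted lines mark the shares of all tested genes, 11.4% lower and 11% higher: the lineage and immune lists extend far to the left, and the cholesterol, ribosome and cell cycle lists far to the right.

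The targeted gene checked the labels. In the duodenum Neurog3 (ENSMUSG00000044312) stood at 2.56, 2.78, 2.58 and 2.43 CPM in control mice and at 0, 0.0236, 0 and 0 CPM in mutant mice. The ileum held 1.02, 1.03, 0.95 and 0.56 CPM in control mice and 0.0164, 0, 0 and 0 CPM in mutant mice. No mutant library overlapped a control library in either region. Over both regions the control libraries held 750 counts and the mutant libraries 2, which makes a ratio of 366 (95% interval from counting error 101 to 3030, adjusted p = 4.86e-07). Such intervals, and the floor of 3 counts per group that stands in for a group without counts, cover counting error only.

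Transcription factors of the lineage fell together. Of 20 tested, 14 fell, 1 rose and 5 did not pass, against the background of 11.4% lower, and all 14 were separated from the controls in both regions. The 14 include Neurog3 itself, the deleted gene, whose fall is the manipulation. Neurod1, a direct target of Neurog3, stood at 7.17, 6.13, 5.92 and 6.16 CPM in the control duodenum and at 0, 0, 0.104 and 0 CPM in the mutant duodenum. In the ileum its control values were 3.85, 5.57, 4.37 and 3.11 CPM, and no mutant library held a count. The fall in the ileum was at least 345-fold. The fitted log2 fold change of the average, which depends on the prior count, was -6.87 (SE 0.26, adjusted p = 9.7e-08). Lmx1a and Fev, factors of serotonin-producing cells, fell by 5.22 (SE 0.26) and 4.93 (SE 0.32) on the log2 scale. Lmx1a had no count in the mutant duodenum, at least 146-fold lower, and Fev none in the mutant ileum, at least 90.1-fold lower. The list had a median of -3.15, or -3.31 with the 2 members that had no count in any mutant library set at their bound. The member that rose was Foxa1 (log2 fold change 0.37), a factor of many endodermal cells. Etv1, Mlxipl, Sox4, Rfx3 and Foxa2, whose expression is not restricted to endocrine cells, lay between -0.31 and 0.0028; these 6 were chosen after their values were seen.

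Hormone genes fell in both regions despite their regional patterns. Of 13 hormone genes 10 fell and none rose, with a median log2 fold change of -5.26, the lowest of the 48 lists examined, and 9 of the 10 were separated in both regions. Cck, the cholecystokinin gene, stood at 61.3, 50.1, 48.7 and 43.8 CPM in the control duodenum and at 0.0597, 0, 0 and 0 CPM in the mutant duodenum. The ileum, with 3.63, 4.42, 3.44 and 3.71 CPM in control mice, kept 0.0697 CPM in M168 and none in the other mutants. In the duodenum 10748 control counts faced 3 mutant counts, a ratio of 3000 (interval 1030 to 14500), and the averaged log2 fold change was -8.18 (SE 0.22, adjusted p = 6.08e-09). Gip, the gene of an incretin of the proximal gut, fell by 7.94 (SE 0.25), and in the ileum, where controls held 946 counts, mutants held none, at least 349-fold lower. Ghrl, the ghrelin gene, fell by 7.01 (SE 0.27) and was also without a count in the mutant ileum, at least 130-fold lower. Nts, which encodes neurotensin of the distal gut, stood at 30.9, 80.6, 34.2 and 37.4 CPM in the control ileum and at 0, 0, 0.0174 and 0.0179 CPM in the mutant ileum, with a log2 fold change of -8.05 (SE 0.39). Tph1, which starts serotonin synthesis, fell by 7.88 (SE 0.19) with no overlap in either region.

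Gcg, the proglucagon gene that gives GLP-1 in the gut, passed on the averages. In the duodenum it stood at 19.4, 33.6, 16.4 and 20.4 CPM in control mice and at 0, 0.118, 0.167 and 3.68 CPM in mutant mice. The control ileum held 54.5, 41, 53.7 and 30.5 CPM and the mutant ileum 0.115, 0.154, 0 and 0.0715 CPM. M177 was the highest mutant in the duodenum and yet lay below every control there, and the averaged log2 fold change was -7.55 (SE 0.65, adjusted p = 0.000575). The duodenum of M177 also held a high level of exocrine pancreas transcripts, as did that of M167 (205000 CPM), where Gcg stood at 0.118 CPM. In the control duodenum 7 pancreatic islet genes summed to 97.5, 21.4, 88.1 and 58.9 CPM. In the mutant duodenum they summed to 33.8, 55.4, 89.3 and 94.4 CPM. The source of the Gcg reads in M177 was not tested. Without M167 and M177 the log2 fold change of Gcg was -8.57. Sst, the somatostatin gene, kept a measurable level in every mutant library: 4.18, 5.52, 3.38 and 5.24 CPM in the duodenum, where controls held 51 to 78.2 CPM. The mutant ileum had 3.73, 3.39, 3.7 and 3.68 CPM, where controls held 19.8 to 23.4 CPM, and no library overlapped. The averaged value was -3.14 (SE 0.11, adjusted p = 7.69e-08). Iapp (log2 fold change -1.79), Gal (0.82) and Vgf (-0.28) did not pass; these 3 were chosen after their values were seen.

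**Figure D2:**
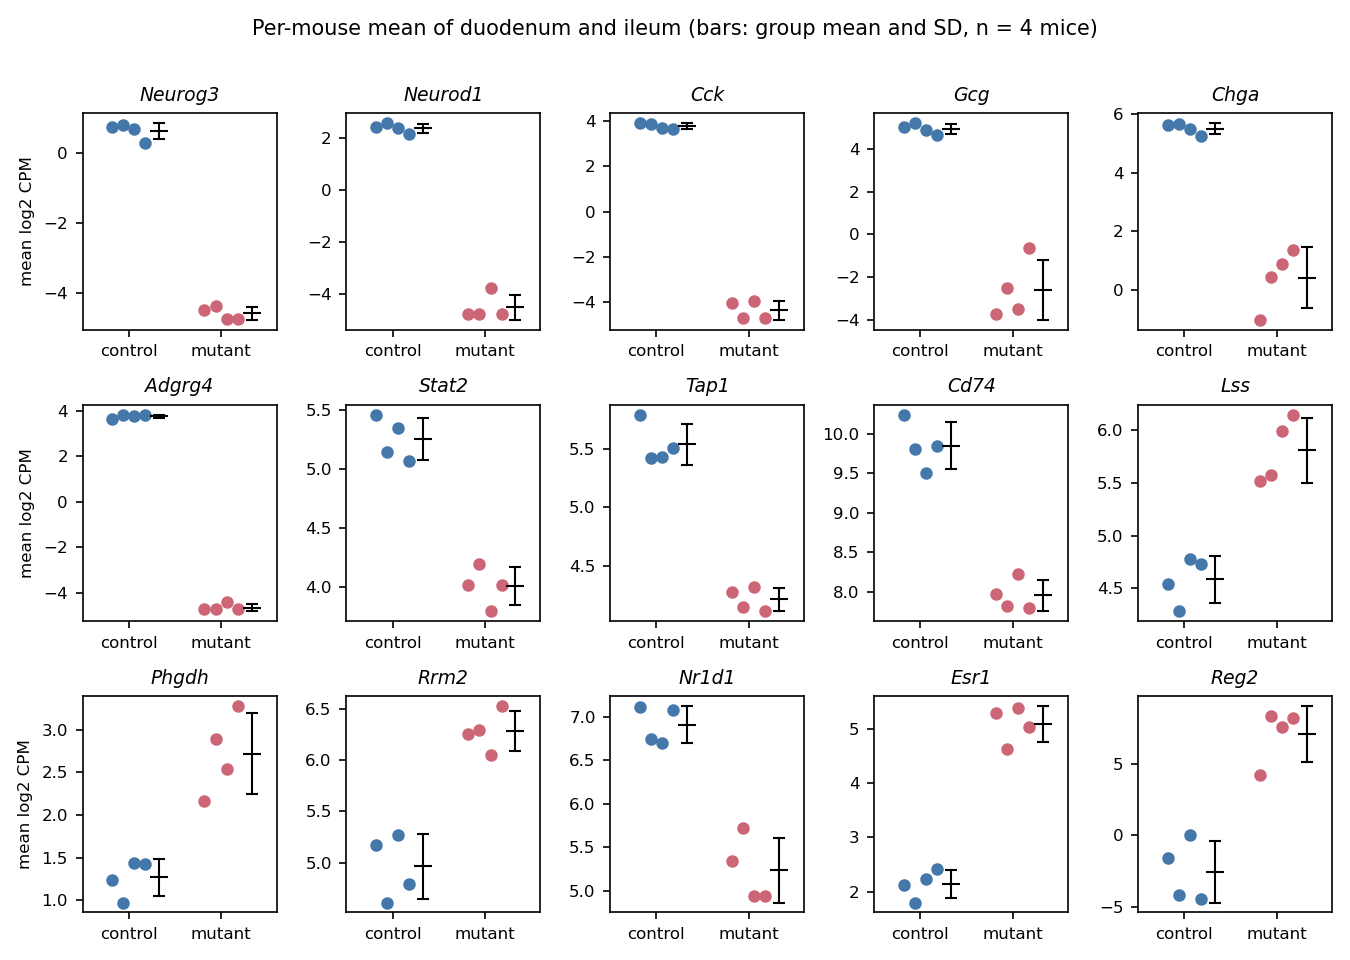
Mean log2 CPM of duodenum and ileum in each mouse for 15 genes, control mice in blue and mutant mice in red, with the group mean and SD beside the points (n = 4 mice per group). The groups do not overlap in any panel, and the mutant points of Neurog3, Cck, Neurod1 and Adgrg4 lie near the bottom of the measurable range.

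Genes of hormone storage and release fell less uniformly. Of 27 granin, convertase and secretory genes 13 fell, none rose and 14 did not pass (median log2 fold change -0.58). Chga, the chromogranin A gene, stood at 82, 65.8, 65.5 and 63.1 CPM in the control duodenum and at 0.279, 2.34, 2.38 and 5.04 CPM in the mutant duodenum. Its ileum values were 29.2, 39.2, 30.4 and 23 CPM in controls and 0.74, 0.742, 1.39 and 1.27 CPM in mutants, so that all mutants lay far below all controls. The averaged log2 fold change was -5.08 for Chga (SE 0.48, adjusted p = 0.00078) and -6.51 for Chgb (SE 0.39, adjusted p = 3.39e-05). Pcsk1, a prohormone convertase, and Syt13, a synaptotagmin family member, kept more of their level, with log2 fold changes of -1.55 (SE 0.10) and -1.25 (SE 0.14).

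Receptors through which these cells sense the gut contents and other hormones followed: 11 of 20 fell, none rose, and 7 of the 11 were separated in both regions (median log2 fold change -0.81, the same with Gpr119 at its bound). Ffar1, a receptor for long-chain fatty acids, fell by 4.69 (SE 0.27, adjusted p = 5.46e-06), and Sstr5, a somatostatin receptor, fell by 4.03 (SE 0.29). Gpr119, a receptor for fatty acid amides, had 121 counts over the control libraries and none over the mutant libraries, at least 39.3-fold lower. Casr, the calcium-sensing receptor, stood at 0.334 to 1.14 CPM in the control duodenum and at 0.0554 to 0.142 CPM in the mutant duodenum, and its averaged log2 fold change was -2.96 (SE 0.35). Glp1r, Gipr, Cnr1 and Ffar4, chosen after their values were seen, lay between -0.06 and 0.07 and did not pass.

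The gene with the largest fall of all those named was on none of these lists. Adgrg4 (ENSMUSG00000053852), an adhesion family G protein-coupled receptor, stood at 28.4, 17.7, 24.4 and 26.6 CPM in the control duodenum and at 5.62, 11.4, 7.63 and 7.44 CPM in the control ileum. A single count in the duodenum of M168, 0.0209 CPM, was the only one in the 8 mutant libraries. The 6780 control counts against that 1 count make a ratio of 6610 (interval 1190 to 261000, log2 fold change -8.43, SE 0.17, adjusted p = 6.82e-10). Afp, which encodes alpha-fetoprotein, a plasma protein of fetal life, fell from 37.9 to 47.4 CPM in the control duodenum to at most 0.23 CPM in the mutants, and from 2.72 to 4.48 CPM to at most 0.139 CPM in the ileum (log2 fold change -6.94, SE 0.39).

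Interferon response genes fell in both regions. The list holds sensors of viral RNA, signalling factors such as Stat2 and the effectors that they induce. Of 26 tested, 25 fell and none rose, and 24 were separated in both regions, where 4.18% of all genes fell with such a separation. Of the 26, 4 differed between the regions in their response, a share not far from the 21.8% of all genes. The median log2 fold changes were -1.34 on the average, -1.19 in the duodenum and -1.58 in the ileum. Oas1a, chosen after its value was seen, did not pass (log2 fold change -0.60). At least 22 of the 26 fell without C134 and C154, without M167 and M177, and with the pancreas or the follicle genes as a covariate.

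Stat2 (ENSMUSG00000040033) stood at 61.8, 51.6, 62.9 and 44 CPM in the control duodenum and at 22.4, 19.9, 19.5 and 21.2 CPM in the mutant duodenum. The ileum held 31.3, 24, 26.1 and 25.4 CPM in controls and 11.6, 16.7, 9.78 and 12.3 CPM in mutants. Every mutant library was below every control library of its region, and the averaged log2 fold change was -1.25 (SE 0.11, adjusted p = 9.35e-05). Ddx58, which encodes the RNA sensor RIG-I, fell by 1.11 (SE 0.08, adjusted p = 2.98e-05), and Gbp3, a guanylate-binding protein gene, fell by 1.32 (SE 0.12).

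Promoter sequences of these genes are shown because the members moved together. In windows from 250 bases before to 50 after the annotated start (RefSeq, GRCm38.p6), the core of the interferon-stimulated response element (GAAA, any 2 bases, GAAA, on either strand) was found in 14 of 24 promoters of the interferon list (58.3%) and in 3.44% of all 32851 promoters. The 24 promoters belong to 20 members for which RefSeq gave a window. The list was chosen as one of known interferon response genes, so this share does not bear on their fall in mutants. The MHC class I list held it in 3 of 15 promoters (20%). In all, 17 motifs were searched and the one described was picked after its shares were seen. The windows of 3 genes follow, 5′ to 3′ on the strand of the gene, with the match in capitals: Stat2 at chr10:128270248-128270547 (plus strand), where the match begins 222 bases before the start, Ddx58 at chr4:40239776-40240075 (minus strand), where it begins at base 3 of the transcript, and B2m at chr2:122147437-122147736 (plus strand), where it begins 139 bases before the start.
Stat2: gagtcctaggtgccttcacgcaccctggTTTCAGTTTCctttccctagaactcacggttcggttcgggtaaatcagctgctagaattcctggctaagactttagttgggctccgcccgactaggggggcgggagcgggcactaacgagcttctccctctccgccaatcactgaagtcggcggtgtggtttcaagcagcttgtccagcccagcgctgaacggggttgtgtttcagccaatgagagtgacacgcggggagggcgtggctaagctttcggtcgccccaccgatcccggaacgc
Ddx58: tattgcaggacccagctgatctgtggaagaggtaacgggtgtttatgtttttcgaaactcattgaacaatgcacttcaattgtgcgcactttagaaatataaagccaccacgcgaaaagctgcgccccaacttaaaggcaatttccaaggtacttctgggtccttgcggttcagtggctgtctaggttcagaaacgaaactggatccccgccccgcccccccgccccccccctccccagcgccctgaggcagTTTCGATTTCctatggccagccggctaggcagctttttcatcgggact
B2m: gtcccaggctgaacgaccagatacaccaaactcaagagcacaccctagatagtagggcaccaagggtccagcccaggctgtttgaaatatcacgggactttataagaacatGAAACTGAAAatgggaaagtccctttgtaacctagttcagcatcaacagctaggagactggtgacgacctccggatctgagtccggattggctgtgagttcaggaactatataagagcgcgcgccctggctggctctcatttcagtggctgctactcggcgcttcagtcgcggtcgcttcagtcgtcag

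Antigen presentation to CD8 T cells uses peptides cut by the immunoproteasome, moved by the TAP transporter and shown on class I molecules with beta-2 microglobulin. Of 16 genes of this machinery 15 fell and none rose (median log2 fold change -1.01, 10 separated in both regions). B2m stood at 2802, 2060, 2518 and 2314 CPM in the control duodenum and at 1759, 991, 1447 and 908 CPM in the mutant duodenum. The ileum held 1022, 1136, 701 and 906 CPM in controls and 323, 212, 373 and 301 CPM in mutants. Both regions were without overlap, and the ileum showed the larger effect (log2 fold changes of -0.97 and -1.65, adjusted p of the difference 0.0462). Tap1, a subunit of the peptide transporter, fell by 1.31 (SE 0.10, adjusted p = 2.97e-05) and Tap2, its partner, by 1.11 (SE 0.10). Nlrc5, which activates class I genes, fell by 1.51 (SE 0.13), Psmb9, an immunoproteasome subunit, by 1.53 (SE 0.15), and the class I heavy chain gene H2-K1, whose reads may be shared with near-identical relatives, by 0.96 (SE 0.15). The member that did not pass, H2-Q1, was chosen after its value was seen (log2 fold change -0.60).

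All 10 genes of class II presentation, which serves CD4 T cells, fell, and 8 were separated in both regions. Cd74, the invariant chain gene, stood at 950, 691, 852 and 991 CPM in the control duodenum and at 430, 376, 388 and 361 CPM in the mutant duodenum. In the ileum the controls held 1542, 1156, 621 and 849 CPM and the mutants 147, 135.6, 232 and 136.2 CPM. The gap was wide in both regions and wider in the ileum (log2 fold changes of -1.15 and -2.64, adjusted p of the difference 0.0106), with an averaged value of -1.89 (SE 0.15, adjusted p = 5.5e-05). The class II chains H2-Ab1 and H2-Eb1 fell by 1.80 (SE 0.16) and 1.73 (SE 0.14), and H2-DMa, which helps to load peptides, by 1.68 (SE 0.16). The list had a median of -1.79, with -1.16 in the duodenum and -2.45 in the ileum. All 10 fell with the follicle genes as a covariate, and 9 without C134 and C154.

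T cells and intraepithelial lymphocytes are the lymphocytes that sit in and under the epithelium. Of 20 of their genes 19 fell and none rose, with a median log2 fold change of -1.61. Cd8a, a co-receptor chain, stood at 13, 19.2, 21.8 and 14.2 CPM in the control duodenum and at 11.5, 7.41, 12.4 and 5.82 CPM in the mutant duodenum. In the ileum controls held 6.89, 7.65, 5.96 and 4.96 CPM and mutants 0.937, 0.602, 1.71 and 0.804 CPM. The gap was narrow in the duodenum and wide in the ileum (log2 fold changes of -0.91 and -2.69, adjusted p of the difference 0.00138). Itgae, the integrin chain CD103 of intraepithelial cells, fell by 1.43 (SE 0.15, adjusted p = 0.000206), Cd4 by 1.16 (SE 0.13) and Cd3e, a chain of the T cell receptor complex, by 1.61 (SE 0.20). The response of 15 of the 20 genes differed between the regions, against 21.8% of all genes. The summed level of the list was 245 to 450 CPM in the control and 114 to 264 CPM in the mutant duodenum, which overlap, and 95.9 to 155 and 22 to 43.8 CPM in the ileum, which do not. Trdc, chosen after its value was seen, did not pass (log2 fold change -0.83).

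Genes of macrophages and dendritic cells fell by less, and 1 of 18 differed between the regions, where 21.8% of all genes did. Of the 18 genes 16 fell and none rose, with medians of -0.679 on the average, -0.676 in the duodenum and -0.852 in the ileum. Adgre1, the F4/80 antigen of macrophages, stood at 24.3, 22.5, 24.8 and 27.3 CPM in the control duodenum and at 15.7, 13.7, 11.6 and 11.4 CPM in the mutant duodenum. Its ileum values of 21.3, 14.1, 16 and 17.5 CPM in controls and 6.02, 11.2, 9.2 and 7.66 CPM in mutants did not overlap either (log2 fold change -0.98, SE 0.11, adjusted p = 0.000422). Siglech, a marker of plasmacytoid dendritic cells, fell by 2.51 (SE 0.32), Flt3, a receptor of dendritic cells and their precursors, by 1.61 (SE 0.20), and Cx3cr1, the fractalkine receptor, by 0.60 (SE 0.08). Cd163 and Mrc1, chosen after their values were seen, stood at 0.62 and 0.11 and did not pass.

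**Figure D3:**
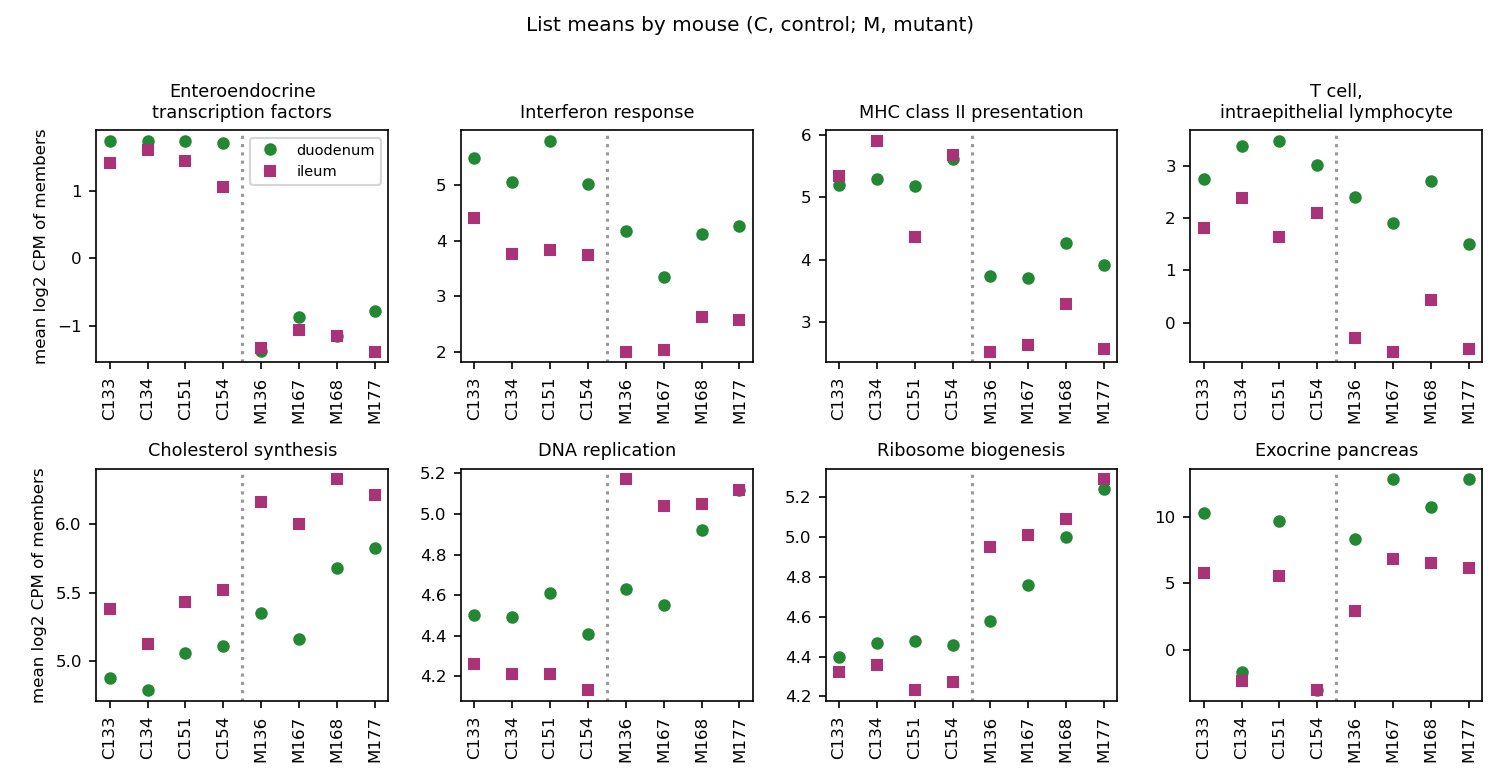
Mean log2 CPM of the tested members of 8 gene lists in each mouse, with the duodenum as circles and the ileum as squares, and control mice to the left of the dotted line. The interferon and MHC class II lists are lower in every mutant mouse in both regions, while the exocrine pancreas panel shows the 2 controls, C134 and C154, that held little pancreatic RNA.

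Genes of cholesterol synthesis and uptake rose. These are targets of SREBP2, the factor that is released when membrane sterol is low. Of 25 tested, 21 rose, none fell and 9 were separated in both regions, against 11% of all genes that rose. Lss (ENSMUSG00000033105), which encodes lanosterol synthase, stood at 18.7, 17.2, 24.1 and 22.1 CPM in the control duodenum and at 32.5, 31.5, 42.7 and 55 CPM in the mutant duodenum. The ileum held 28.7, 21.9, 31.2 and 32 CPM in controls and 64.5, 72.2, 94.4 and 91.6 CPM in mutants. All mutants were above all controls in both regions (log2 fold change 1.23, SE 0.16, adjusted p = 0.000879). Mvk, mevalonate kinase, rose by 1.08 (SE 0.16), and Acat2, an acetyl-CoA acetyltransferase, by 0.76 (SE 0.10). Over the list the median was 0.734 on the log2 scale. Sc5d, Stard4, Ebp and Tm7sf2, chosen after their values were seen, did not pass (-0.27 to 0.08). The count of genes that rose was 13 without C134 and C154 and 11 with the pancreas genes as a covariate.

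Serine and one-carbon enzymes, which are induced when amino acids run short, rose without clean separation in the duodenum. Of 15 genes of the amino acid starvation response 8 rose and none fell (median log2 fold change 1.01), and none of the 8 was separated in both regions. Phgdh, the first enzyme of serine synthesis, stood at 2.56, 1.65, 2.75 and 3 CPM in the control duodenum and at 2.59, 8.03, 5.57 and 13.7 CPM in the mutant duodenum, where M136 lay within the controls. In the ileum control mice had 2.12, 2.25, 2.6 and 2.34 CPM, and mutant mice 7.58, 6.82, 6.01 and 6.77 CPM, without overlap (averaged log2 fold change 1.45, SE 0.22, adjusted p = 0.00149). Psat1, the next enzyme, rose by 1.40 (SE 0.22), Shmt2, a mitochondrial serine hydroxymethyltransferase, by 1.07 (SE 0.16), and Asns, asparagine synthetase, by 1.35 (SE 0.24). The stress factors Atf4, Ddit3, Atf3 and Trib3, chosen after their values were seen, stood at 0.39, -0.33, -0.55 and -0.24 and did not pass. Without C134 and C154 3 genes rose, and Asns no longer passed there (adjusted p = 0.0618) or with the pancreas covariate (0.0505). With the pancreas genes as a covariate 4 rose, with the follicle genes 5, and with 1 mouse left out 4 to 9 (4 without C151 or M168, 5 without C133 or C134).

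Ribosome biogenesis factors, which build ribosomal subunits in the nucleolus, rose in 20 of 22 cases, and 13 of the 20 were separated in both regions. Npm1, the nucleophosmin gene, stood at 77.2, 79.6, 80.7 and 89.3 CPM in the control duodenum and at 98.9, 125, 124 and 139 CPM in the mutant duodenum. The ileum held 65.9, 76.2, 66 and 69.9 CPM in controls and 183, 110, 132 and 138 CPM in mutants, again without overlap (log2 fold change 0.78, SE 0.08, adjusted p = 0.000206). Ncl, the nucleolin gene, rose by 0.78 (SE 0.12), Rrp12, an export factor of pre-ribosomes, by 0.98 (SE 0.15), and Wdr43, a factor of the small subunit, by 0.58 (SE 0.09). The median of the list was 0.585, and none of the 22 fell. The count that rose was 13 without C134 and C154.

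Genes of DNA replication and mitosis rose on the averages, with most of the rise in the ileum. Of 22 replication genes 20 rose and none fell (median log2 fold change 0.62), and of 20 mitosis genes 19 rose and none fell (0.58). Of those that rose, 8 replication and 3 mitosis genes were separated in both regions, where 2.99% of all genes rose with such a separation. Rrm2, a subunit of ribonucleotide reductase, stood at 70.2, 38.1, 84.3 and 45.2 CPM in the control duodenum and at 124, 98.9, 93.1 and 140 CPM in the mutant duodenum. The ileum held 18.5, 15.6, 17.7 and 16.9 CPM in controls and 47.3, 62.7, 47.2 and 61.2 CPM in mutants. Both regions were without overlap (log2 fold change 1.32, SE 0.15, adjusted p = 0.00052). Rrm1, its partner, rose by 0.77 (SE 0.10), Pole, a DNA polymerase subunit, by 0.70 (SE 0.08), and Mcm7, of the replicative helicase, by 0.63 (SE 0.08).

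Among mitotic genes Ccna2, the cyclin A2 gene, rose by 0.90 (SE 0.10, adjusted p = 0.000328) and Kif11, a spindle motor, by 0.75 (SE 0.10), both separated in both regions. Ccnb2, the cyclin B2 gene, stood at 19.4 to 24.5 CPM in the control and 19.4 to 28.5 CPM in the mutant duodenum, which overlap, and at 13.8 to 16.6 against 36.2 to 46.1 CPM in the ileum (adjusted p of the difference 0.00119). The response differed between the regions for 19 of the 22 replication genes and 14 of the 20 mitosis genes, against 21.8% of all genes. Their medians were 0.318 and 0.251 in the duodenum and 0.89 and 0.95 in the ileum. Without C134 and C154, 13 replication and 9 mitosis genes rose, and with the pancreas or the follicle genes as a covariate 11 or 12 mitosis genes did.

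Some of the largest rises belonged to none of the lists above. Reg2 (ENSMUSG00000023140), a secreted lectin of the Reg family that is also made in the pancreas, stood at 0.721, 0.0159, 4.18 and 0.0198 CPM in the control duodenum and at 146, 2750, 780 and 3175 CPM in the mutant duodenum. In the ileum the values were 0.102, 0.0191, 0.209 and 0 CPM in controls and 2.22, 37.4, 45 and 26.9 CPM in mutants. The groups lay far apart in both regions (log2 fold change 9.62, SE 1.41, adjusted p = 0.00549). Within the mutants Reg2 was highest in the duodenum of M167 and M177, the 2 libraries with the most exocrine pancreas transcripts. In C133, C151 and M136 the pancreas list stood at 33200, 21100 and 9270 CPM there. Fitted with the pancreas covariate, Reg2 had a log2 fold change of 7.32 (adjusted p = 0.0114). Its call was lost when C134 and C154 or M167 and M177 were left out (adjusted p up to 0.0554), and reads of Reg genes may be shared between relatives.

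Esr1 (ENSMUSG00000019768), the oestrogen receptor alpha gene, stood at 3.05, 2, 3.29 and 4.01 CPM in the control duodenum and at 46, 28.2, 50.4 and 29.2 CPM in the mutant duodenum. The ileum held 6.15, 5.87, 6.53 and 7.05 CPM in controls and 33.4, 21.8, 34.5 and 36.6 CPM in mutants. All mutant libraries lay above all control libraries of either region (log2 fold change 2.94, SE 0.18, adjusted p = 8.33e-06). The mutants also carry CreERT2, whose ERT2 part derives from the ligand-binding domain of an oestrogen receptor, so reads of the transgene and of the endogenous gene cannot be told apart in gene counts.

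Azgp1, the zinc-alpha-2-glycoprotein gene, rose by 4.24 (SE 0.37, adjusted p = 8.11e-05), from at most 0.104 CPM in any control library to at least 0.476 CPM in every mutant library. Its mutant values in the duodenum, 0.637, 6.75, 1.59 and 4.93 CPM, had the same order as the pancreas list. That order did not extend to the controls or the ileum. In the duodenum C133, C151 and M136 held 33200, 21100 and 9270 CPM of the list and 0.0601, 0.021 and 0.637 CPM of Azgp1. In the ileum M167 was the highest mutant for the list (3020 CPM) and the lowest for Azgp1 (0.476 CPM). The source of the Azgp1 reads was not tested. With the pancreas genes as a covariate its log2 fold change was 4.48 (adjusted p = 0.000367). Retnlb, which encodes a resistin-like protein of goblet cells, stood at 0 to 0.663 CPM in the control ileum and at 5.37, 30.3, 6.19 and 14 CPM in the mutant ileum. It was close to absent from the duodenum, with at most 0.249 CPM in any library (averaged log2 fold change 3.75, SE 0.45, adjusted p = 0.000594, or 0.065 with the mouse as a block). Gml, a gene of the Ly6 family, rose by 3.23 (SE 0.59), and Pla2g5, a secreted phospholipase gene, by 2.08 (SE 0.39). Apod, a lipocalin gene, rose by 1.87 (SE 0.24), BC064078 by 2.21 (SE 0.24), and Dhrs9, a retinol dehydrogenase gene, by 1.83 (SE 0.28). Igkv7-33, an immunoglobulin light chain segment (log2 fold change 4.64, SE 0.81), and the defensin pseudogene Defa-ps6 (1.93, SE 0.25) belong to families whose reads can be split between near-identical copies. Igkv7-33 lost its call without C134 and C154, without M167 and M177 and with the pancreas covariate, and Pla2g5 without C134 and C154 and with that covariate.

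**Figure D4:**
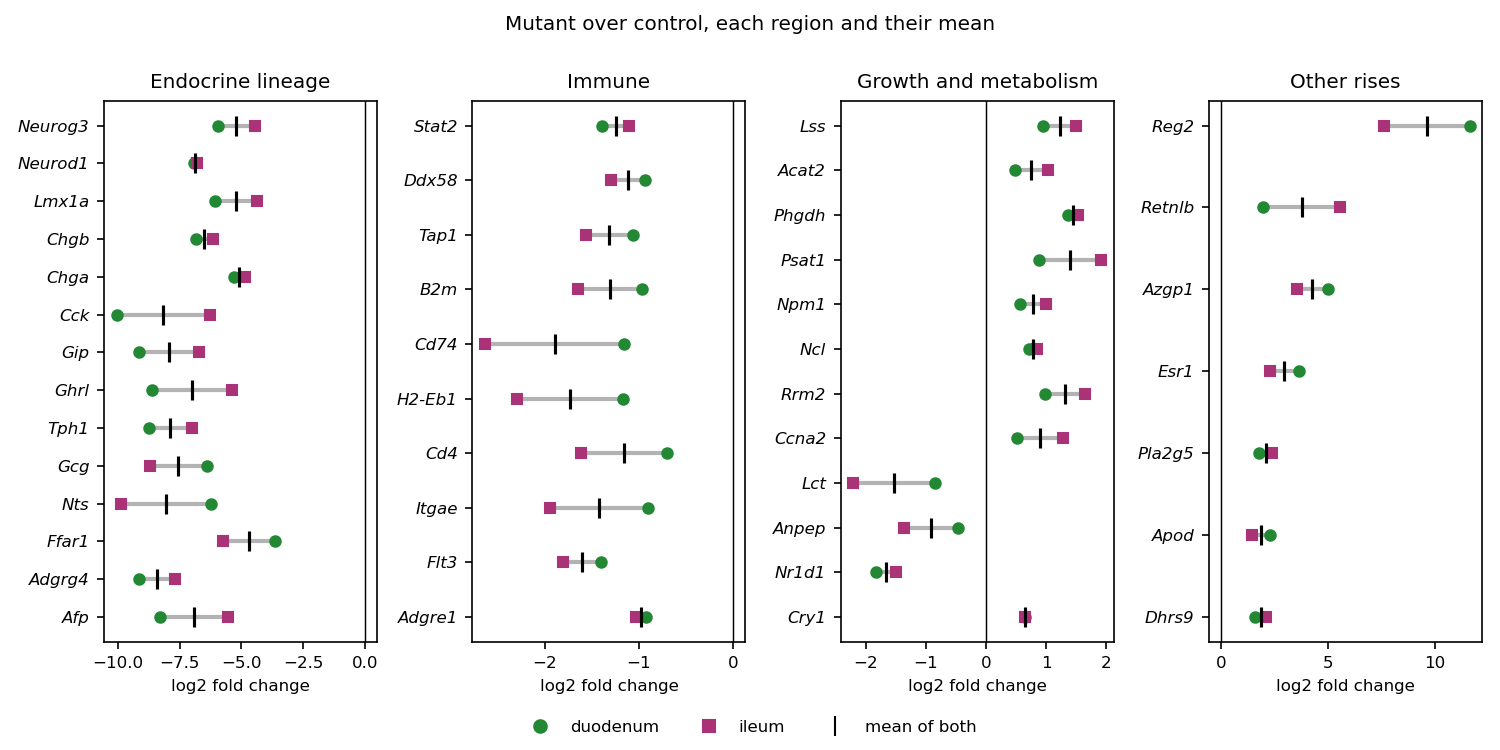
Log2 fold change of mutant over control in the duodenum (circles), in the ileum (squares) and averaged over both (black ticks) for genes of the endocrine lineage, immune genes, genes of growth and metabolism and other rises. Horizontal axes differ between panels, and values of genes without a count in a group depend on the prior count; Cd74 and Lct lie further from 0 in the ileum, while the values of Phgdh (1.36 and 1.53) nearly coincide.

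Paneth cell genes, many of whose products are antimicrobial, rose in 8 of 14 cases on the average and fell in none, and none of the 8 was separated in both regions. Pla2g2a, a bactericidal phospholipase, stood at 4.57, 4.91, 5.39 and 6.42 CPM in the control duodenum and at 12.2, 11.5, 14.7 and 13.9 CPM in the mutant duodenum. In the ileum the controls (10.8, 20.4, 16.5 and 23.4 CPM) overlapped the mutants (38.3, 22.8, 33.3 and 35 CPM). The averaged log2 fold change was 1.09 (SE 0.17, adjusted p = 0.00156), with 0.67 (SE 0.14) for Ang4, an angiogenin, and 0.72 (SE 0.15) for Mmp7, a protease that activates defensins. The median of the list was 0.855 in the duodenum and -0.0814 in the ileum. Defa22, an alpha-defensin gene, shows how an average can hide a region: it stood at 0.761 to 1.99 CPM in the control and 6.3 to 13.9 CPM in the mutant duodenum, and at 286 to 467 against 182 to 486 CPM in the ileum (log2 fold changes of 2.91 and -0.10). Its call on the average (1.40, SE 0.30, adjusted p = 0.0143) was lost when the counts of both regions were summed, with edgeR and with DESeq2 (adjusted p up to 0.605). On summed counts 4 Paneth genes rose with edgeR and 5 with DESeq2, and with 1 mouse left out 4 (without C151 or M177) to 8 did, with 5 without C133.

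Enzymes and transporters of the brush border moved the other way and less firmly. Of 20 genes of peptide and sugar absorption 8 fell and none rose (median log2 fold change -0.442), none of them separated in both regions. Lct, the lactase gene, stood at 4615, 3694, 3013 and 4104 CPM in the control duodenum and at 4644, 2495, 1906 and 894 CPM in the mutant duodenum, which overlap. In the ileum its values of 745, 1325, 591 and 567 CPM in controls and 133.4, 183, 228 and 129 CPM in mutants did not overlap (averaged log2 fold change -1.53, SE 0.26, adjusted p = 0.00398). Treh, the trehalase gene, fell by 1.08 (SE 0.24), Anpep, aminopeptidase N, by 0.91 (SE 0.22), and Slc7a9, a transporter of cystine and basic amino acids, by 0.43 (SE 0.11). Without C134 and C154 only 1 of the 20 passed, without M167 and M177 3 did, with the pancreas or the follicle covariate 1, and with edgeR on summed counts 2. Without the filter on low counts 4 passed. Treh, Anpep and Slc7a9 lost their calls without C134 and C154 and with either covariate, Treh also with edgeR on summed counts and Anpep without M167 and M177 (adjusted p up to 0.116, 0.129 and 0.0941). With 1 mouse left out 4 to 12 passed, the most without M168 and 4 each without C133, C134, M167 or M177. Lct lost its call with edgeR and DESeq2 on summed counts, where the duodenum weighs more.

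Core clock genes moved in both directions: 2 of 19 rose and 3 fell, shares close to the 11% and 11.4% of all genes. Nr1d1, which encodes the repressor REV-ERB alpha, stood at 134.4, 102, 97.5 and 156 CPM in the control duodenum and at 39.6, 53.6, 21.6 and 28.1 CPM in the mutant duodenum. The ileum held 141, 113, 111 and 117 CPM in controls and 41.7, 51.9, 43.9 and 33.7 CPM in mutants, so that no library overlapped in either region (log2 fold change -1.67, SE 0.18, adjusted p = 0.000443). Bhlhe41, a repressor also called DEC2, fell by 1.31 (SE 0.19), Cry1, a cryptochrome gene, rose by 0.66 (SE 0.14), and Nfil3, a repressor of clock outputs, rose by 0.95 (SE 0.21), mostly in the duodenum (1.74, against 0.15 in the ileum). Cry1 and Nfil3 lost their calls without C134 and C154 and with the follicle covariate, so that no gene of the list rose in those 2 fits with limma. Cry1 also lost its call with the pancreas covariate and Nfil3 without M167 and M177. The other fall was Dbp (log2 fold change -1.74), chosen after its value was seen, a clock output factor.

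Besides Reg2, Cd74, B2m and H2-K1, described above, the most abundant genes with a separated change include 7 that moved by small amounts. Those that rose were Tkt, transketolase (log2 fold change 0.44, SE 0.11), Nedd4, a ubiquitin ligase (0.43, SE 0.11), Atp2a2, a calcium pump (0.39, SE 0.12), and Rack1, a ribosomal scaffold (0.33, SE 0.09). Rack1 stood at 508 to 549 CPM in the control and 556 to 771 CPM in the mutant duodenum, and at 448 to 524 against 527 to 703 CPM in the ileum. Those that fell were Gda, guanine deaminase (-0.89, SE 0.15), Itm2b, a membrane protein gene (-0.66, SE 0.14), and Adgrg7, an adhesion receptor gene (-0.44, SE 0.10). All 7 changed by less than 2-fold, and of them only Gda kept its call in all 21 alternatives: the other 6 lost it without C134 and C154, Atp2a2 in 10 alternatives in all and Rack1 in 7.

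The response differed between the regions for 4197 genes, 21.8% of those tested, of which 2918 were not called on the average. The count was 1734 with edgeR on the 16 libraries, 1572 without C134 and C154, 2282 without M167 and M177, 2701 and 1407 with the pancreas or the follicle genes as a covariate, and 2566, 2769 and 2184 without C133, M136 or C151. Among the genes called on the average, 743 of those that rose and 536 of those that fell differed, and the change was larger in the ileum for 692 and 447 of them. An average can cover opposite changes: 67 genes that rose and 40 that fell on the average had opposite signs in the regions. Il1rn, the gene of the interleukin-1 receptor antagonist, stood at 5.15, 5.56, 4.64 and 6.38 CPM in the control and 3.44, 3.99, 3.65 and 3.08 CPM in the mutant duodenum, where it was lower. In the ileum control mice had 6.58, 4.61, 4.75 and 5.47 CPM, and mutant mice 35.5, 83.1, 39.8 and 32.7 CPM, where it was higher (averaged log2 fold change 1.22, SE 0.17). Cwh43, which acts in the remodelling of lipid anchors, likewise had log2 fold changes of -1.19 and 3.09 behind an averaged 0.95 (SE 0.23), and lost its averaged call without C134 and C154 and with the follicle covariate.

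For other genes 1 region carried the average. Tgfbi, an extracellular matrix gene, stood at 190 to 291 CPM in the control and 239 to 291 CPM in the mutant duodenum, and at 332 to 498 against 125 to 152 CPM in the ileum (averaged log2 fold change -0.83, SE 0.12). Col18a1, a basement membrane collagen gene, fell the other way round, from 95.2 to 119 to 35.7 to 43.8 CPM in the duodenum, while the ileum overlapped (averaged log2 fold change -0.63, SE 0.10). Gsta1, a glutathione transferase gene with close relatives, rose from at most 4.26 to at least 7.53 CPM in the ileum and overlapped in the duodenum. Its averaged call (1.36, SE 0.34, adjusted p = 0.0272) was lost in 12 of 21 alternatives (adjusted p up to 0.473). The differences of these 5 genes had adjusted p-values of 7.31e-06 (Il1rn and Cwh43), 1.49e-05 (Tgfbi), 3.39e-05 (Gsta1) and 0.000115 (Col18a1).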

How the data were processed

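RNA from duodenum and ileum of 4 control and 4 mutant mice gave 16 libraries, made with a stranded total RNA kit after depletion of ribosomal RNA, per the labels' protocols. The authors deposited raw read counts per Ensembl gene. The submitters' processing notes name cutadapt 1.10, Bowtie2 2.2.8, STAR 2.5.3a, HTSeq 0.6.1p1 and mm39. The sources used here do not give the annotation release or the strand setting of the counting, so overlapping and antisense genes may share reads, as may near-identical copies (Reg, defensin, Gsta, immunoglobulin and H2 class I genes). Symbols came from GENCODE M21 (names only). Of 55359 identifiers 21034 had no count, and 3276 without a symbol held 1.02% of the counts. Per-sample columns that could not be mapped numbered 0. Totals of 40.9 to 67.2 M counts make counting error small except for the lowest genes.

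Groups and mouse numbers were taken from the library titles. Libraries of the same number were read as the same mouse: in deviations from the group means, the correlation between a mouse's libraries was 0.221 to 0.481, and it was the highest with its own number in 7 of 8 mice (M168: 0.253 against 0.26). Nothing else in the labels says that mice of a group were handled separately, so p-values measure the spread between these mice.

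Genes were filtered with filterByExpr over the 4 groups, counts scaled by TMM over all libraries (edgeR 4.0.16, R 4.3.3), and log2 CPM computed with a prior count of 2 and averaged over the 2 libraries of a mouse. The main test was limma 3.58.1 (trend, robust) on these averages and, for the region difference, on ileum minus duodenum, with Benjamini-Hochberg adjustment over 19289 genes and a threshold of 0.05. The pipeline was also run on simulated counts drawn independently for the 2 libraries of a mouse, so that run did not cover their correlation. Alternatives were other scaling, filters and prior count, edgeR and DESeq2 1.42.0 on summed counts, the mouse as a random block in limma-voom or no block, pairs of mice left out, covariates and each mouse left out.

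The members and gene lists (48 lists, 822 of 827 symbols found) were chosen with earlier results of these data known. Named genes are Neurog3, the 12 largest rises and 12 largest falls among called genes with a mean of at least 1 CPM that were separated in both regions, the 6 most abundant of these in each direction, up to 4 genes with the smallest p in each list described, and the 5 genes called on the average with the smallest p for a region difference. Some genes that this rule picks are not reported here. A fold against a group without counts was computed against a floor of 3 counts over the group. Promoter windows came from RefSeq (GRCm38.p6) and were matched by symbol.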

Additional observations from a re-analysis of the deposited data

Results flagged for a closer look

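Of 192 groups of 4 mice checked among the named genes, 8 held a mouse far from the other 3 in its mean log2 CPM; chance alone flags about 1 in 20 groups. M168 stood above the other mutants for Adgrg4 (-4.42 against -4.74), for Neurod1 (-3.78 against -4.74) and for Fev (-3.78 against -4.74), where the others lay at the level of no count. With the others tied, any count in 1 mouse alone is flagged, so the rate of 1 in 20 does not apply to these groups. M167 was the lowest mutant for Gbp3 (2.44 against 2.72 to 2.77) and for Pla2g2a (4.02 against 4.43 to 4.47). C151 was the highest control for Kif11 (5.93 against 5.62 to 5.67) and for Ncl (6.9 against 6.62 to 6.64), and C133 for Psmb9 (4.99 against 4.54 to 4.61).

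For 49 of the 96 named genes the genotype effect differed between the regions by limma's test on the per-mouse difference (adjusted p under 0.05 over all genes). Values are the log2 fold change in the ileum minus that in the duodenum. Among endocrine genes the difference was 3.76 for Cck, 3.27 for Ghrl, 2.46 for Gip, 1.76 for Tph1, 1.71 for Lmx1a, 1.49 for Neurog3, 1.22 for Sst and 0.809 for Syt13, and -2.07 for Ffar1 and -3.62 for Nts. Afp and Adgrg4, which are on no list, had 2.75 and 1.46. Most of these genes have few or no counts in mutants, so the value depends on the control level and the prior count. Among immune genes the ileum showed the larger fall, with -1.78 for Cd8a, -1.57 for Cd3e, -1.48 for Cd74, -1.27 for H2-Ab1, -1.25 for H2-DMa, -1.13 for H2-Eb1, -1.09 for Nlrc5, -1.05 for Itgae, -0.909 for Cd4, -0.677 for B2m and -0.574 for Tap2. Growth and sterol genes had the larger rise in the ileum, with 1.18 for Ccnb2, 0.843 for Kif20a, 0.771 for Ccna2, 0.666 for Rrm2, 0.659 for Shmt2, 0.625 for Rrm1, 0.595 for Rrp12, 0.594 for Kif11, 0.558 for Acat2, 0.549 for Lss and 0.5 for Mcm7. Of the other genes, positive differences were 4.29 for Cwh43, 3.66 for Il1rn, 3.64 for Retnlb, 2.53 for Gsta1 and 1.59 for Col18a1. Negative ones were -4.04 for Reg2, -3.01 for Defa22, -1.78 for Tgfbi, -1.6 for Nfil3, -1.35 for Esr1, -1.06 for Bhlhe41, -0.977 for Treh, -0.837 for Apod, -0.582 for Mmp7 and -0.557 for Slc7a9.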

How the results depend on the processing

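On the averages, 2118 genes rose and 2205 fell, and 4197 differed between the regions. These counts became 695, 852 and 1572 without C134 and C154, 932, 1064 and 2701 with the pancreas covariate, and 1111, 1229 and 1407 with the follicle covariate; the cause was not tested, and the first has fewer mice. Without M167 and M177 the region difference held for 2282 genes, and 921 rather than 576 genes rose with separation in both regions, where fewer libraries had to lie apart. With 1 mouse left out, 1452 to 2579 genes rose, 1523 to 2409 fell and 2184 to 4604 differed between the regions, and 580 to 940 rises and 809 to 1058 falls were separated. With the replicate block 2289 rose, 2458 fell, 3939 differed, and 583 and 815 were separated; among the named genes the block ended the call of Retnlb and no other. With no replicate block, edgeR gave 3050 rises, 3091 falls and 1734 region differences. Of the 4323 genes called on the averages, 2 changed sign with edgeR and 2 with DESeq2 on summed counts, and none in the other alternatives. Of the 96 named genes 76 kept their call in every alternative that gave a value, and 0 changed sign. Named genes were picked from these same data, mostly for small p, large change or separation, which favours such stability. Among all genes called on the averages and also tested, 1490 of 4310 kept the call without C134 and C154. The pancreas covariate left 1916 of 4323, the follicle covariate 2251 of 4323, and the fit without M167 and M177 2953 of 4321. Depth limits the genes with few counts in mutants, whose fold rests on the prior count.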

Other observations

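Further lists were compared by the same test on the averages, where 11% of all genes rose and 11.4% fell. Genes in this part were chosen after their values were seen. Counts of 5 fits follow in this order: all mice, without C134 and C154, without M167 and M177, with the pancreas covariate and with the follicle covariate. The 11% and 11.4% belong to the first fit. Over all genes 2118, 695, 1995, 932 and 1111 rose in these fits, and 2205, 852, 1762, 1064 and 1229 fell. The genes tested numbered 19289, 20053, 20129, 19289 and 19289. Of 16 antimicrobial and oxidant defence genes 4, 2, 1, 3 and 3 rose: Reg3b (log2 fold change 2.64) and Reg3g (1.85), secreted lectins that bind bacteria, Lcn2 (1.21), which sequesters bacterial siderophores, and Reg2 rose in all mice, while Reg4 (-0.66) fell. Of 14 goblet cell genes 4, 4, 6, 6 and 6 rose, with Agr2 (0.78), an endoplasmic reticulum protein needed for mucin, and Spdef (0.46), a goblet cell factor, beside Retnlb and Galnt12 (0.36), and Ccl6 fell (-0.26). Of 20 nuclear receptor genes 8, 3, 6, 3 and 3 fell, with Nr3c2 (-0.75), Thra (-0.52), Thrb (-0.56) and Nr3c1 (-0.40) among them in all mice, and Esr1 alone rose in each of the 5. As stated above, reads of Esr1 cannot be told apart from those of the CreERT2 transgene that the mutants carry. Of 17 glycolysis genes 10, 2, 9, 3 and 2 rose and none fell (median 0.391, with -0.0341 in the duodenum and 0.702 in the ileum). None of 22 oxidative phosphorylation genes passed with limma, nor with edgeR or DESeq2 on summed counts (median 0.0824, 1 at an unadjusted p under 0.05).

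Of 15 B cell and plasma cell genes 6, 1, 4, 2 and 3 fell and none rose. Cd79a (-2.09), a chain of the B cell receptor, and Jchain (-1.13), which links IgA dimers, were among the 6. The mean log2 CPM of the list was 3.70, 5.11, 3.81 and 5.40 in the control mice and 2.93, 3.27, 3.99 and 3.09 in the mutant mice, so that M168 lay above C133 and C151. C134 and C154, the highest, were also the controls with the highest mean log2 CPM of the follicle list. Among 29 drug metabolism genes 7, 0, 4, 1 and 3 fell and 2, 1, 1, 1 and 1 rose, and among 19 genes of EGF and ERK signalling 4, 2, 4, 2 and 5 rose and 1 fell in all mice. Among 12 Notch and secretory progenitor genes 4, 1, 3, 2 and 1 fell, and among 15 crypt stem cell genes 3, 1, 2, 1 and 1 fell; none rose in either.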
